A study of Mus musculus with 16 samples.

Results

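Activation of a T cell through its antigen receptor switches on a small group of transcription factors, and 10 of these genes are described here: Fos, Jun, Junb, Nfatc1, Egr1, Egr2, Egr3, Nr4a1, Nr4a3 and Irf4. They were found by gene symbol among the 53090 genes of the deposited tables, in which each symbol had 1 row, and all 10 passed the filter on low counts in every comparison. RNA had been sequenced from CD4+ T cells of C57BL/6 wild-type (WT) mice and of mice lacking Aim2 (Aim2-/-), whose background is also C57BL/6, all held under pathogen-free conditions and matched for sex and age, with no ages stated. The naïve groups (WT Tn and Aim2-/- Tn) were spleen CD4+ T cells obtained by immunomagnetic selection as CD44low CD62Lhigh and not cultured, and the Treg groups (WT Treg and Aim2-/- Treg) were such cells after 2 days (48 h) with antibodies to CD3 and CD28, human TGF-beta and mouse IL-2. Each of the 4 groups had 4 libraries. Nothing in the sources used here says which libraries came from separate mice, so p-values measure the spread between these libraries, which may be partly technical. No unstimulated culture of the same length was analysed, and stimulation, cytokines, time in culture and the handling of fresh cells cannot be told apart in any comparison of Treg with Tn.

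The factors belong to distinct families that respond to the same receptor. Calcium entry activates the phosphatase calcineurin, which sends NFAT proteins such as NFATc1 to the nucleus. The MAP kinase pathway acts through SRF and its partners on immediate-early genes, which need no new protein for their induction: Fos, Jun and Junb encode subunits of the AP-1 dimer, and Egr1, Egr2 and Egr3 encode zinc finger factors. Nr4a1 and Nr4a3 encode orphan nuclear receptors that are widely used as reporters of recent antigen receptor signalling, and IRF4 is a partner of AP-1 in T cells whose level follows the strength of the receptor signal. In Treg cells, NR4A factors, NFAT and IRF4 are known to take part in Foxp3 expression or in Treg function. Immediate-early transcripts are also induced when cells are taken from tissue and dissociated.

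The 16 libraries held from 22516424 to 34533316 expected counts each, so that 3 counts, the smallest signal taken as measurable, stood for 0.0869 to 0.133 CPM, the count scaled to library size; this floor covers counting error only. Aim2 itself was measured at 32.3 to 37.9 CPM in WT Tn and 6.61 to 9.26 CPM in Aim2-/- Tn, and at 35.7 to 43.3 CPM in WT Treg and 7.17 to 10.8 CPM in Aim2-/- Treg, so that the libraries of the genotypes did not overlap in either state. The summed level of 6 CD4 T cell markers was 3254 to 3824 CPM in Tn and 1565 to 1710 CPM in Treg. Markers of other cells were low: the B cell list summed to at most 2.39 CPM, with Ms4a1 at 0 in every library, the CD8 T cell list to at most 12.3 CPM and the NK cell list to at most 7.36 CPM. Dendritic cell markers summed to at most 1.80 CPM, erythroid markers to at most 4.99 CPM and platelet markers to at most 4.73 CPM. The 8 myeloid markers summed to 12.4 to 20.0 CPM in Tn and 1.82 to 3.92 CPM in Treg, with S100a8 at 0 in every library and Lyz2 at no more than 1.46 CPM. Most of the Tn sum came from Cd68 (5.025 to 11.42 CPM), Itgam (2.649 to 4.703 CPM) and Csf1r (0.7512 to 2.89 CPM), which were present in every Tn library. The fall of the myeloid sum from Tn to Treg moved in the same direction as that of some factors, and its part in their change was not tested. The levels are shares of the RNA of a library, in which fewer cells of a type and less RNA per cell cannot be told apart.

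Among the naïve libraries, replicates 3 and 4 of WT Tn stood apart from the other 6 for part of the genes described here, with low Nr4a3, Irf4, Fosl2 and Dusp10. Results that rest on these libraries are given with the values within replicates 1 and 2 and within replicates 3 and 4, the numbers being those of the library titles.

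RefSeq gave a promoter for 7 of the 10 factors on GRCm38.p6, and the 250 bases before the start of transcription were searched on both strands for the core of the cyclic AMP response element, the site of CREB and ATF proteins (letters TGACG, read as CGTCA on the other strand), and for the CArG box, the site of SRF. Both factors are known regulators of immediate-early genes. Windows are shown for 4 members, all with a match, and those of Nr4a3, which also had a match, and of Jun and Irf4, which had none, are not shown. The core was found before the start of 5 of the 7 factors (Fos, Junb, Egr2, Nr4a1 and Nr4a3; for Egr2, in 3 of its 5 RefSeq starts) and in 17.8% of the 32851 RefSeq promoter windows of the same length. A CArG box was found for 1 factor, Egr2, and in 1.47% of the windows. A factor was counted if any of its windows held a match, whereas the percentages count windows, so the shares are not alike. Sequence beyond the 250 bases was not searched, so the lack of a CArG box in the Fos window says nothing of sites further away. A match is a description of letters only. In the sequences, capitals mark these motifs, which do not overlap each other.
Fos, chr12:85473640-85473889, plus strand: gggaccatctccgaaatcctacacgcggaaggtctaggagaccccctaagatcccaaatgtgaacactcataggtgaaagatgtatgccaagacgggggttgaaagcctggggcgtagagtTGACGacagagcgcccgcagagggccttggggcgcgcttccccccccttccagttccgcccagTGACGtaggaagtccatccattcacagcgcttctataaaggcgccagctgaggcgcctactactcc
Junb, chr8:84978749-84978998, minus strand: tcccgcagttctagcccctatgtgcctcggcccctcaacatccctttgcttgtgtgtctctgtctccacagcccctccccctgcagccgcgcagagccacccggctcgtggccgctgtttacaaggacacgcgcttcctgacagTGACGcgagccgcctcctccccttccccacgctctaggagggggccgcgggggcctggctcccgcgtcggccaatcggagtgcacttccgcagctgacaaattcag
Egr2, chr10:67537619-67537868, plus strand: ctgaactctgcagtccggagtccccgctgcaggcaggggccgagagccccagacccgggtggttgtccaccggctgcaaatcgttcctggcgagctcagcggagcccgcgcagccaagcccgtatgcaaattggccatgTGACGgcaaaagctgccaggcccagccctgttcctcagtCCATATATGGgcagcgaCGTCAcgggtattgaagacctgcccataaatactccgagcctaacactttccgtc
Nr4a1, chr15:101266596-101266845, plus strand: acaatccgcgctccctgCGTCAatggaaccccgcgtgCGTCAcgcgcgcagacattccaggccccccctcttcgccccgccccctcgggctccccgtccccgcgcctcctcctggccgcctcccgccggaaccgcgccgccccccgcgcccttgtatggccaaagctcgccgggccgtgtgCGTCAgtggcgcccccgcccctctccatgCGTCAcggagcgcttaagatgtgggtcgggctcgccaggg
The Fos window holds TGACG at 129 and 66 bases before the start, and that of Junb holds it at 106 bases. The Egr2 window has the core at 111 and 55 bases with the CArG box between them at 72 bases. It lies before a start inside the annotated gene. The Egr2 window at the beginning of that gene (67535249 to 67535498) holds neither motif. The Nr4a1 window also lies before a start inside the gene and has 4 copies of the core, at 233, 213, 69 and 40 bases. No match was found for Jun or Irf4, which says only that these letters are not in the windows searched.

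Of the 10 factors, 8 differed between WT Treg and WT Tn, with 3 higher (Egr2, Egr3 and Irf4) and 5 lower (Fos, Jun, Junb, Egr1 and Nfatc1) after culture, while Nr4a1 and Nr4a3 did not pass the test. In Aim2-/- cells, all 10 differed, with the same 3 and Nr4a3 higher and the same 5 and Nr4a1 lower. These counts stand against a background in which 76.9% of all 13675 genes tested were called in WT and 79.3% of 13713 in Aim2-/-, so that a call by itself sets no factor apart. By direction, 37.7% of the genes were higher and 39.2% lower in WT, and 39.1% and 40.2% in Aim2-/-. The libraries of Treg and Tn did not overlap for 8 of the factors in WT, where 72.9% of all genes did not, and for 10 in Aim2-/-, where 74.8% did not. The median log2 fold change of the 10 factors was -0.57 in WT and -0.41 in Aim2-/-, against -0.05 and -0.04 for all genes tested. The name of activation-induced factors describes what is known of these genes and not their direction here, with 5 of 10 lower in WT and 6 of 10 lower in Aim2-/- in stimulated, cultured cells than in freshly isolated cells. The WT and Aim2-/- comparisons share no libraries.

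**Figure D1:**
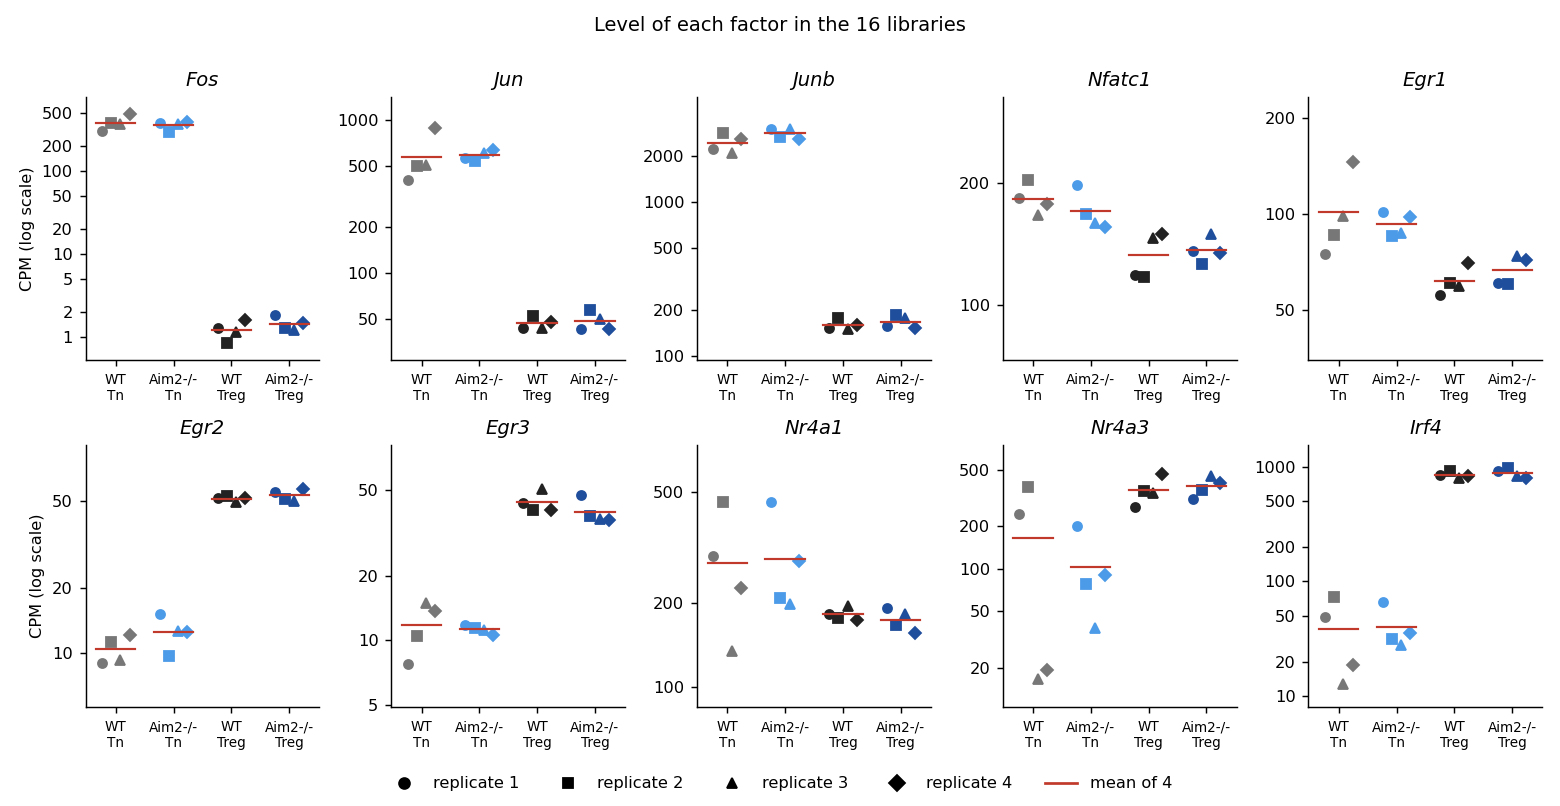
Level of each factor in CPM (log axis, scaled separately for each gene) in the 16 libraries, by group; symbols give the replicate number and red lines the mean of 4 libraries. The AP-1 genes of the upper row lie far lower in Treg than in Tn libraries, Egr2, Egr3 and Irf4 lie higher, and the Tn libraries spread most for Nr4a3, Irf4 and Nr4a1.

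The AP-1 subunits fell furthest. Fos (ENSMUSG00000021250.13, chromosome 12, 85473890 to 85477273), the partner that lets JUN proteins bind DNA as a stable dimer, stood at 301, 377, 370.2 and 486 CPM in replicates 1 to 4 of WT Tn and at 1.28, 0.839, 1.15 and 1.59 CPM in WT Treg. In Aim2-/- cells it stood at 379, 294, 364 and 385 CPM in Tn and at 1.81, 1.26, 1.21 and 1.45 CPM in Treg. No Tn library was below 294 CPM and no Treg library above 1.81 CPM, where the number of counts limits the precision. The log2 fold change of Treg against Tn was -8.34 in WT (standard error 0.23, adjusted p = 2.8e-09) and -7.97 in Aim2-/- (standard error 0.16, adjusted p = 7.9e-12), from the quasi-likelihood test of edgeR, adjusted as for all p-values below. Only 7 of the 13675 genes tested in WT, and 16 of 13713 in Aim2-/-, had a lower log2 fold change than Fos.

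Jun (ENSMUSG00000052684.4, chromosome 4, 95049034 to 95052222), which encodes the c-JUN subunit, a substrate of JNK kinases, had levels of 406, 500.5, 509 and 881 CPM in WT Tn and 43.6, 52.1, 43.4 and 47.6 CPM in WT Treg. Its Aim2-/- levels were 566, 538, 610.1 and 635 CPM in Tn and 42.9, 57.2, 49.9 and 43.0 CPM in Treg. Replicate 4 of WT Tn was the highest, and no Treg library came near the lowest Tn library. The log2 fold change of Jun was -3.65 in WT (standard error 0.24, adjusted p = 6e-07) and -3.62 in Aim2-/- (standard error 0.12, adjusted p = 3.1e-10). Its expected counts were not whole in 16 libraries, so that some reads were shared with other genes, and the antisense gene Junos overlaps it at no more than 0.631 CPM.

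Junb (ENSMUSG00000052837.6, chromosome 8, 84974484 to 84978718), an AP-1 subunit known to act with BATF and IRF4 in T helper and Treg cells, was the most abundant of the factors in Tn. It stood at 2197, 2827, 2092 and 2589 CPM in WT Tn and at 152, 177, 151 and 159 CPM in WT Treg. In Aim2-/-, the levels were 3004, 2652, 2976 and 2555 CPM in Tn and 157, 184, 176 and 152 CPM in Treg. Groups were again fully separate, at log2 fold changes of -3.96 in WT (standard error 0.11, adjusted p = 2.9e-09) and -4.08 in Aim2-/- (standard error 0.11, adjusted p = 5.5e-11). Prdx2 overlaps Junb on the opposite strand and rose from at most 96.3 CPM in Tn to at least 181 CPM in Treg, and the strand setting of the counting is not given in the sources used here, so that the assignment of reads where they overlap is uncertain.

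Nfatc1 (ENSMUSG00000033016.15, chromosome 18, 80606205 to 80713071) encodes an NFAT protein with an inducible short isoform that sustains its own transcription in activated lymphocytes. Its level was 184, 204, 167 and 177 CPM in WT Tn and 119, 117, 146 and 149.9 CPM in WT Treg. The Aim2-/- libraries held 198, 168, 159 and 156 CPM in Tn and 136, 126, 150.0 and 134 CPM in Treg. The ranges were separate in both genotypes although close, and the log2 fold change of Nfatc1 was -0.49 in WT (standard error 0.10, adjusted p = 0.0016) and -0.33 in Aim2-/- (standard error 0.09, adjusted p = 0.0066). In Aim2-/- the call was lost within replicates 3 and 4 (log2 fold change -0.18, adjusted p = 0.15). The tables give 1 value per gene, so the isoforms could not be separated, and an antisense gene overlaps the locus.

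The EGR genes, paralogous zinc finger factors that bind the same GC-rich element, moved in different directions. Egr1 (ENSMUSG00000038418.7, chromosome 18, 34859823 to 34864984) was lower after culture, from 75.2, 86.3, 98.4 and 146 CPM in WT Tn to 55.8, 60.9, 59.4 and 70.2 CPM in WT Treg. In Aim2-/- it went from 102, 85.6, 87.1 and 98.3 CPM in Tn to 60.8, 60.3, 74.2 and 71.6 CPM in Treg. The highest Treg library stayed below the lowest Tn library in each genotype. The log2 fold change was -0.75 in WT (standard error 0.19, adjusted p = 0.0043) and -0.49 in Aim2-/- (standard error 0.10, adjusted p = 0.00053), small beside that of the AP-1 genes.

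Egr2 (ENSMUSG00000037868.15, chromosome 10, 67535475 to 67542188) and Egr3, which are known to restrain T cell responses and to act in anergy and tolerance, rose. Egr2 was at 8.98, 11.3, 9.25 and 12.2 CPM in WT Tn and at 51.7, 53.0, 49.7 and 51.6 CPM in WT Treg. Its Aim2-/- levels were 15.1, 9.64, 12.7 and 12.5 CPM in Tn and 55.2, 51.2, 50.1 and 57.1 CPM in Treg. The Treg libraries lay within a narrow band and all Tn libraries far below it, with log2 fold changes of 2.27 in WT (standard error 0.11, adjusted p = 7.3e-08) and 2.09 in Aim2-/- (standard error 0.13, adjusted p = 4.3e-08). Egr3 (ENSMUSG00000033730.4, chromosome 14, 70077203 to 70082614) was at 7.81, 10.5, 15 and 13.7 CPM in WT Tn and at 43.7, 40.5, 50.8 and 40.5 CPM in WT Treg. In Aim2-/- cells the libraries held 11.8, 11.5, 11.2 and 10.5 CPM in Tn and 47.4, 37.7, 36.7 and 36.3 CPM in Treg. Egr3 thus followed Egr2, at log2 fold changes of 1.87 in WT (standard error 0.19, adjusted p = 1.1e-05) and 1.80 in Aim2-/- (standard error 0.11, adjusted p = 4.1e-08). Egr4, the remaining paralog and named here outside the rule of choice, had too few counts to be tested in WT, with at most 0.490 CPM in any library.

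Nr4a1 (ENSMUSG00000023034.6, chromosome 15, 101254269 to 101274795) and Nr4a3 (ENSMUSG00000028341.9, chromosome 4, 48045153 to 48086447) encode receptors for which no natural ligand is firmly known and which bind DNA as monomers or dimers. Nr4a1 stood at 294, 460.4, 135 and 228 CPM in WT Tn and at 183, 177, 196 and 175 CPM in WT Treg. In Aim2-/-, it stood at 463, 208, 199 and 283 CPM in Tn and at 193, 167, 182 and 157 CPM in Treg. The Treg libraries sat inside the range of WT Tn, below all Aim2-/- Tn libraries, and within a much narrower band. The log2 fold change was -0.65 in WT (standard error 0.30, adjusted p = 0.079, 95% interval -1.33 to 0.04) and -0.73 in Aim2-/- (standard error 0.24, adjusted p = 0.016). Both calls moved with the libraries used: the value in WT was -1.06 within replicates 1 and 2 and -0.01 within replicates 3 and 4, both given as a description, and -0.88 without replicate 3 of Tn (adjusted p = 0.0029). In Aim2-/- the call was lost without replicate 2 of Treg (log2 fold change -0.67, adjusted p = 0.064) or replicate 4 of Treg (-0.64, adjusted p = 0.07).

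Of the factors, Nr4a3 varied most among the naïve libraries. It was measured at 242, 379, 16.7 and 19.2 CPM in WT Tn and at 271, 352, 343 and 469 CPM in WT Treg. In Aim2-/-, the levels were 201, 77.4, 38.3 and 90.6 CPM in Tn and 309, 360.4, 453 and 399.6 CPM in Treg. Replicates 1 and 2 of WT Tn were within or just below the range of the Treg libraries, replicates 3 and 4 lay more than 10-fold below them, and the Aim2-/- Tn libraries lay between. The log2 fold change of Treg against Tn was 1.89 in Aim2-/- (standard error 0.40, adjusted p = 0.0014), whereas that of WT was 1.09 with a 95% interval of -0.93 to 3.11 (standard error 0.89, adjusted p = 0.29). It was 0.01 within replicates 1 and 2 of WT and 4.46 within replicates 3 and 4, values that restate the split of the Tn libraries and are given without a test.

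Irf4 (ENSMUSG00000021356.10, chromosome 13, 30749226 to 30766976) rose more than any other of the factors. Its level was 48.8, 72.6, 12.8 and 18.6 CPM in WT Tn and 848, 920.2, 791 and 834 CPM in WT Treg. In Aim2-/-, it was 66.5, 31.4, 27.9 and 35.7 CPM in Tn and 910.2, 971, 828 and 793 CPM in Treg. Every Tn library was far below the lowest Treg library, although the Tn libraries differed widely among themselves. Treg exceeded Tn by 4.44 on the log2 scale in WT (standard error 0.54, adjusted p = 5.5e-05) and by 4.43 in Aim2-/- (standard error 0.27, adjusted p = 1.1e-07). The value was 3.88 within replicates 1 and 2 of WT and 5.65 within replicates 3 and 4, likewise a description.

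**Figure D2:**
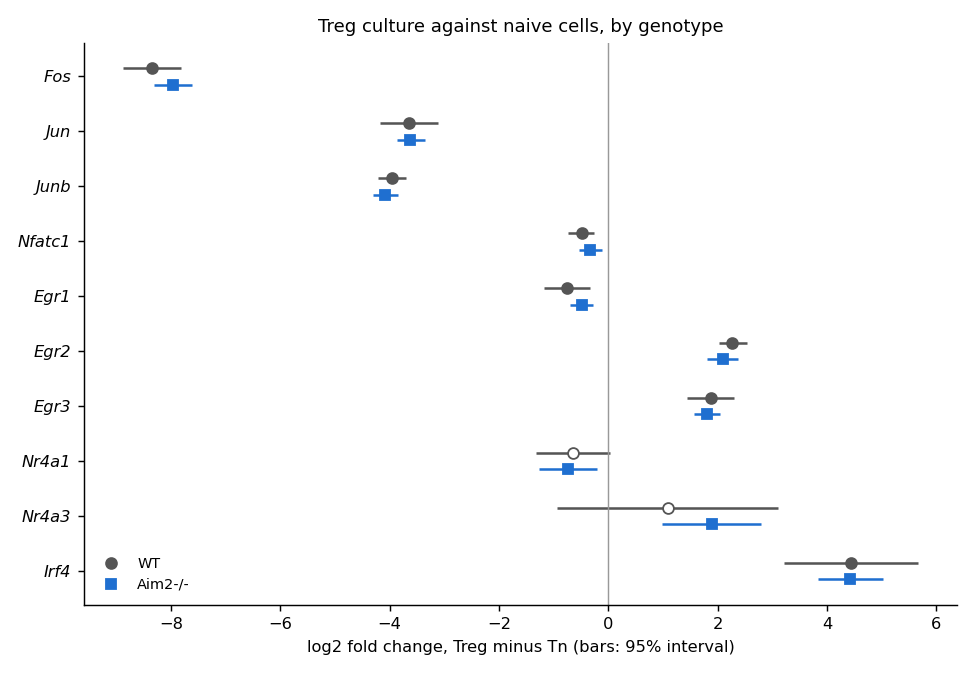
Log2 fold change of Treg against Tn for each factor in WT (circles) and Aim2-/- (squares), with 95% intervals; filled symbols passed the test. Fos, Jun and Junb lie at the left, between -8.34 and -3.62, Irf4 at the right at 4.4, and the widest interval is that of Nr4a3 in WT.

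Comparing levels between genes requires a correction for length, and the mean CPM per kilobase of annotated exon was used. In WT Tn, Junb led with 1054 CPM per kb, followed by Jun (180.0), Fos (163), Nr4a1 (79.6), Nr4a3 (27.5), Nfatc1 (24.5), Egr1 (22.6), Irf4 (7.79), Egr2 (3.07) and Egr3 (2.67). The neighbours from Jun down to Egr1 overlapped in their library ranges, as did those from Irf4 to Egr3, whereas Junb was separate from Jun and Egr1 from Irf4. In WT Treg, the order began with Irf4 at 173 CPM per kb, and continued with Junb (69.5), Nr4a3 (59.9), Nr4a1 (52.1), Nfatc1 (17.8), Egr2 (15.2), Jun (14.6), Egr1 (13.7), Egr3 (9.96) and Fos (0.517). There, Junb, Nr4a3 and Nr4a1 overlapped as neighbours, and so did Egr2, Jun and Egr1, while Irf4 and Fos stood clear at the ends. The Treg order was the same in Aim2-/-, with Irf4 at 179 and Fos at 0.609 CPM per kb. In Aim2-/- Tn, the order differed from that of WT Tn by Nr4a3 (17.0 CPM per kb) falling below Nfatc1 (22.8) and Egr1 (20.8), whose library ranges overlapped with it.

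The question of whether the loss of AIM2, a cytosolic DNA sensor, alters these factors was asked within each state. In Tn cells, 0 of the 10 factors passed the test, against 0.231% of the 13441 genes tested, and 0 had an unadjusted p under 0.05 in edgeR, against 10.3% of all genes. The groups overlapped for all 10, where 6.95% of the genes tested did not overlap. The difference closest to the threshold was that of Junb, at a log2 fold change of 0.21 in Aim2-/- against WT with a 95% interval of -0.04 to 0.47 (adjusted p = 0.54). The intervals of Fos (-0.42 to 0.22), Jun (-0.42 to 0.50), Nfatc1 (-0.32 to 0.13), Egr1 (-0.52 to 0.29), Egr2 (-0.08 to 0.62) and Egr3 (-0.46 to 0.35) bound the difference within about 0.6 on the log2 scale. Those of Nr4a1 (-0.91 to 1.01), Irf4 (-1.28 to 1.46) and Nr4a3 (-3.18 to 1.82) leave room for a change of several fold in either direction for Nr4a3. DESeq2, limma-voom and edgeR with RLE size factors also called none of the 10.

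In Treg cells, 0 of the 10 factors passed, against 0.219% of the 13221 genes tested, and 0 had an unadjusted p under 0.05, against 2.31% of all genes. Again, no factor had groups that did not overlap, against 2.26% of the genes tested. The intervals were narrower than in Tn for 9 of the 10, and the exception was Fos at its low level (0.24, 95% interval -0.31 to 0.79). Irf4 was bound between -0.12 and 0.21, Egr2 between -0.09 and 0.18, Junb between -0.11 and 0.23, Nr4a1 between -0.24 and 0.10 and Nr4a3 between -0.30 and 0.46. Jun (-0.20 to 0.28), Nfatc1 (-0.18 to 0.25), Egr1 (-0.10 to 0.32) and Egr3 (-0.40 to 0.09) were of the same order. Here too, DESeq2, limma-voom and RLE size factors gave 0 calls among the 10.

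**Figure D3:**
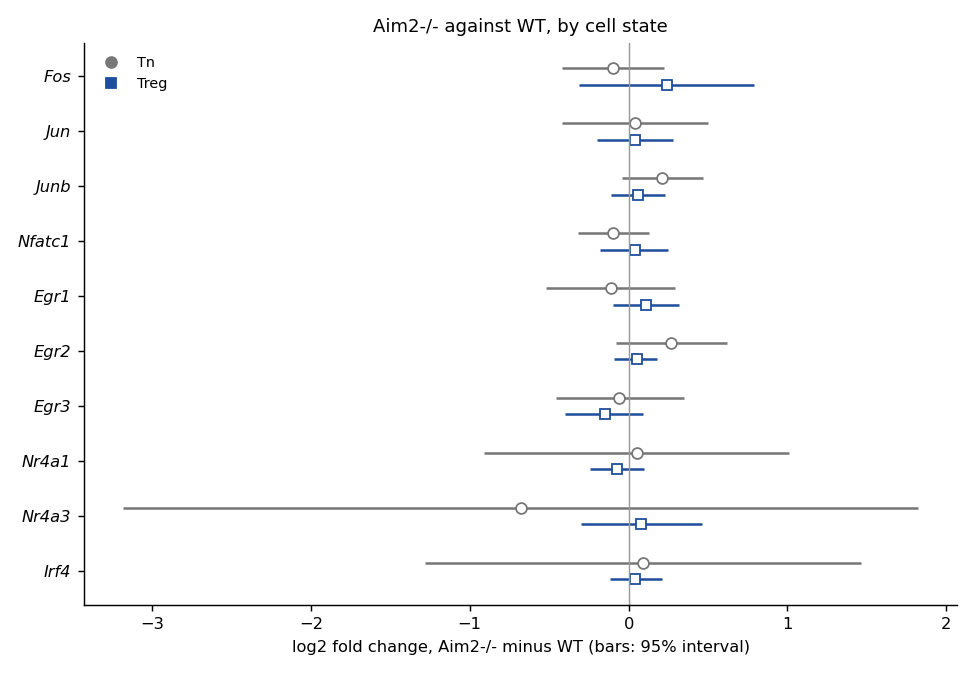
Log2 fold change of Aim2-/- against WT for each factor in Tn (circles) and Treg (squares), with 95% intervals; open symbols did not pass the test, and none did. All 20 intervals include 0, and the Tn intervals of Nr4a3, Irf4 and Nr4a1 are the widest.

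Whether the change with culture differed between the genotypes was tested as an interaction over all 16 libraries. Of the 10 factors, 0 passed, against 0.0205% of 14669 genes, and 0 had an unadjusted p under 0.05, against 3.49% of all genes; DESeq2 and limma-voom also called none of them. The difference in log2 fold change (Aim2-/- minus WT) was 0.78 for Nr4a3 (95% interval -1.55 to 3.11), so the call of Nr4a3 in Aim2-/- and its absence in WT do not amount to a difference between the genotypes. For Nr4a1, also called in Aim2-/- alone, the difference was -0.11 (95% interval -1.03 to 0.81). Fos gave 0.36 (-0.20 to 0.92), Egr2 -0.21 (-0.57 to 0.15), Junb -0.14 (-0.44 to 0.15) and Irf4 -0.03 (-1.28 to 1.21).

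The spread within the naïve groups had a pattern of its own. The ratio of the highest to the lowest library of WT Tn was 22.7 for Nr4a3, 5.69 for Irf4 and 3.40 for Nr4a1. Ratios at least as large were found in 0.172%, 2.88% and 7.87% of the 13983 genes considered, those tested over all libraries with no library at 0. In WT Treg, the ratios were 1.73, 1.16 and 1.12. The libraries with the 3 highest levels of Nr4a3 (replicates 2 and 1 of WT and replicate 1 of Aim2-/-) also held the 3 highest levels of Irf4 and of Nr4a1. The lowest levels of Nr4a3 and Irf4 were those of replicates 3 and 4 of WT Tn.

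Fos, Jun and Egr1 did not share this pattern. Each was highest in replicate 4 of WT Tn, the library with the second lowest Nr4a3, and their ratios of highest to lowest library in WT Tn were 1.62, 2.17 and 1.94. Junb, Nfatc1 and Egr2 varied least in WT Tn, with ratios of 1.35, 1.22 and 1.36. Genes of the other lists followed Nr4a3, and the 4 given here were chosen after their values were seen. Fosl2, an AP-1 subunit, was at 519, 735, 20.7 and 43.6 CPM in WT Tn and at 409.5, 202, 87.5 and 182 CPM in Aim2-/- Tn, and Nr4a2, the third NR4A receptor, was at 40.9, 60.5, 4.18 and 6.48 CPM and at 49.0, 20.0, 11.3 and 21.7 CPM. Dusp10, a phosphatase of JNK and p38, was at 1219, 1395, 120.3 and 171 CPM and at 1441, 914, 617 and 842 CPM, and Crem, a cyclic AMP-induced factor, was at 73.7, 85.1, 6.38 and 8.28 CPM and at 48.7, 20.4, 17.3 and 31.6 CPM. Over all 13441 genes tested in Tn, 12.6% were lower in both replicates 3 and 4 of WT than in each of the other 6 Tn libraries, beside 2 of the 10 factors (Nr4a3 and Irf4) and 9 of 19 relatives, 7 of 37 regulators, 8 of 28 target genes and 6 of 20 isolation and stress genes (Klf6, Socs3, Nfkbia, Mcl1, Csrnp1 and Rhob) of the lists described below. Replicates 3 and 4 of WT had been singled out by low Nr4a3, Irf4, Fosl2 and Dusp10, which these counts include. The counts restate that choice in part, and no excess of any list is read from them. Nfkbia, an NF-kB inhibitor and stress-list gene, was at 629, 856, 349 and 479 CPM in WT Tn. The summed level of the stress list was 9722, 10490, 7133 and 8133 CPM in WT Tn and 7958 to 9316 CPM in Aim2-/- Tn, lowest in replicate 3 of WT. A large part of this sum was 1 gene, the constitutive chaperone Hspa8, at 4655, 4510, 3515 and 3499 CPM in WT Tn. The sum therefore says little of the other genes of the list. Ppp1r15a, of the same list, and Dusp1 varied less, at 1080.0 to 1487 CPM and 261 to 352 CPM over the 8 Tn libraries, both with their lowest level in replicate 3 of WT. The library totals of replicates 3 and 4 of WT Tn were 22516424 and 27844055 counts, and those of replicates 1 and 2 were 29784858 and 26347567. The source of this spread was not tested.

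**Figure D4:**
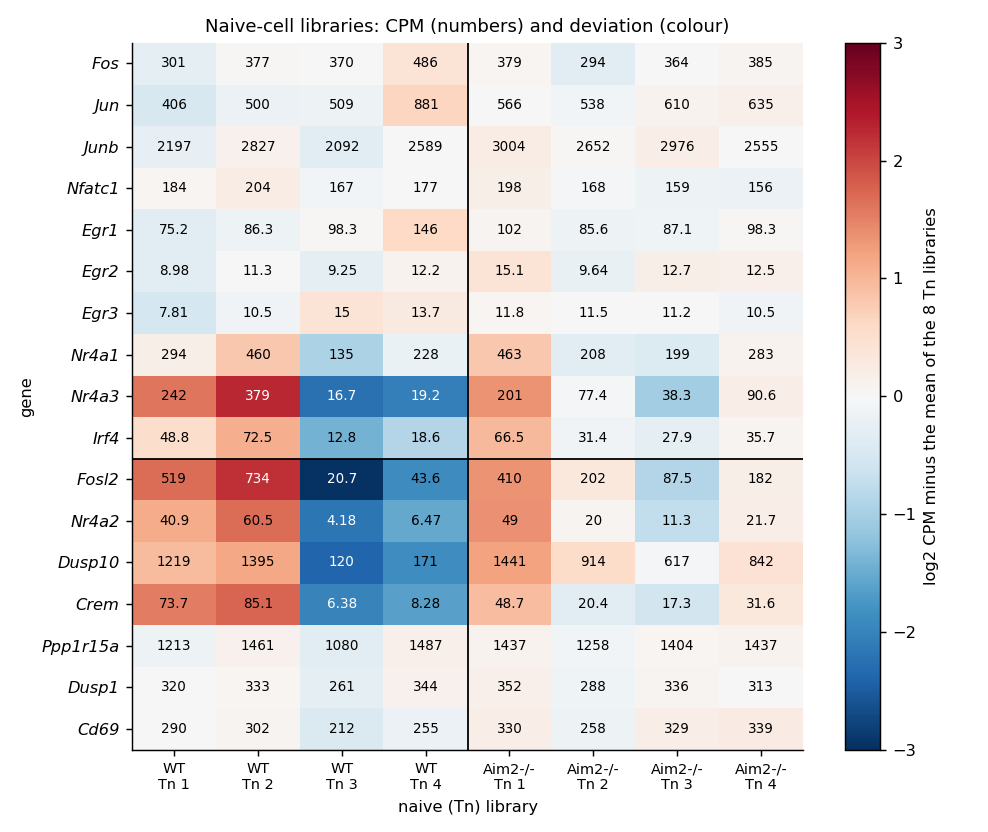
CPM of the 10 factors and of 7 genes of the other lists (below the line) in the 8 Tn libraries, coloured by the log2 deviation from the gene's mean over these libraries. Nr4a3, Irf4, Fosl2, Nr4a2, Dusp10 and Crem are low in replicates 3 and 4 of WT Tn, while Fos, Jun and Egr1 have their lowest WT level in replicate 1, and Ppp1r15a and Dusp1 vary less, with their lowest level in replicate 3.

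The genotype comparison in Tn was therefore also read within the replicate subsets. Within replicates 1 and 2, the log2 fold change of Aim2-/- against WT was -1.14 for Nr4a3 and -0.30 for Irf4. Within replicates 3 and 4 it was 1.83 for Nr4a3 and 1.01 for Irf4. Since these subsets separate the WT libraries that were high and low in both genes, the values restate that spread and are a description, with no test. Irf4 was past the threshold within replicates 3 and 4, where 4.21% of 12245 genes were, and for the same reason nothing is read from it.

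The wider families of the factors were described by 23 relatives, of which 21 were tested in WT, with 7 higher and 12 lower in Treg (median log2 fold change -0.71 in WT, and -0.72 in Aim2-/- with 8 higher and 12 lower of 21). Among all genes tested, 37.7% were higher and 39.2% lower in WT, and 39.1% and 40.2% in Aim2-/-, with medians of -0.05 and -0.04. The share of relatives called lower was above that of all genes in both genotypes. Those called higher include Batf3 and Nfatc4, which could pass the filter only through the Treg groups. Their direction was thus set by the filter, and nothing is read from the share called higher. Neither share was tested. Irf8, a partner of BATF and of PU.1 best known from myeloid cells, rose from 8.21 to 12.7 CPM in WT Tn to 927 to 1738 CPM in WT Treg, at a log2 fold change of 6.93 (adjusted p = 1.5e-08) and 7.12 in Aim2-/-. Irf5, a factor of innate cytokine induction, rose by 3.05 in WT and 2.43 in Aim2-/-. Batf3 and Nfatc4 had 1 count each over the 4 WT Tn libraries and 0 in Aim2-/- Tn, and passed the filter through the Treg groups. Batf3, an AP-1 partner of IRF proteins, was at 1.48 to 4.11 CPM in WT Treg. Against the floor of 3 counts per library, it was at least 18.9-fold higher in the mean of Aim2-/- Treg than in Aim2-/- Tn. This bound was 15.6-fold without the highest Treg library and 9.4-fold for the lowest library alone. Nfatc4 was at 0.852 to 14.4 CPM in WT Treg, and at least 70.7-fold higher in the mean of Aim2-/- Treg than in Tn. This mean was carried by replicates 1 and 2 (16.1 and 10.7 CPM, against 1.48 and 1.30 CPM in replicates 3 and 4), the bound being 43.0-fold without replicate 1 and 12.5-fold for the lowest library alone. With these genes at their bounds, the medians of the list were the same.

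Among the relatives that fell, Fosb, a close relative of Fos and an immediate-early gene, went from 34.3 to 87.9 CPM in WT Tn to 1.33 to 1.92 CPM in WT Treg (log2 fold change -5.35, adjusted p = 3.5e-07). Irf7, an interferon-induced factor, had a log2 fold change of -4.73 in WT and was called. The log2 fold change of Fosl2 was -4.18 in WT (standard error 1.07, adjusted p = 0.0057) and -3.75 in Aim2-/- (standard error 0.41, adjusted p = 1.1e-05), from the uneven Tn levels given above. Fosl1, another AP-1 subunit, named here outside the rule and after its values were seen, rose by 3.00 on the log2 scale in WT (adjusted p = 1.6e-05), at 0.380 to 1.11 CPM in WT Tn and 4.39 to 7.41 CPM in WT Treg.

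Regulators of the pathways that drive or limit these factors, 40 genes of which 37 were tested in WT, gave 9 higher and 20 lower in WT Treg (median log2 fold change -0.61) and 12 higher and 19 lower in Aim2-/- (median -0.26), beside 37.7% higher and 39.2% lower of all genes in WT and 39.1% and 40.2% in Aim2-/-. Dusp4, a nuclear phosphatase of ERK, rose from 2.32 to 26.9 CPM in WT Tn to 227 to 272 CPM in WT Treg (log2 fold change 4.17, adjusted p = 0.00051). Spred1 and Spry1, inhibitors of the RAS to ERK pathway, rose by 2.11 and 1.85, and Elk3, a ternary complex factor that acts with SRF, rose by 1.91. Dusp10 had a log2 fold change of -5.63 in WT (standard error 0.87, adjusted p = 0.00029) and -5.59 in Aim2-/-. Dusp1, an immediate-early phosphatase of MAP kinases, fell from at least 261 CPM to at most 8.06 CPM in WT (log2 fold change -5.39, adjusted p = 6.2e-10). Btg2, an antiproliferative gene, fell by 3.49 on the log2 scale, and Zfp36, whose product destabilises short-lived mRNAs, fell by 3.42.

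The list of target genes, those known to be induced by NFAT, AP-1, NR4A or IRF4 in T cells, had 31 members, 28 of them tested in WT. It gave 12 higher and 8 lower in WT (median log2 fold change 0.50) and 13 higher and 11 lower of 29 in Aim2-/- (median -0.08), shares near the 37.7% and 39.1% of all genes called higher in the genotypes, and, for those lower, below the 39.2% and 40.2%. Il2ra, the IL-2 receptor alpha chain, rose from at most 4.16 CPM in WT Tn to at least 1378 CPM in WT Treg (log2 fold change 8.68, adjusted p = 5.1e-10). Foxp3, the lineage factor of Treg cells, rose by 7.41, Pdcd1 (PD-1) by 5.52 and Tnfrsf4 (OX40) by 3.97. On the other side, the early activation marker Cd69 fell from at least 212 CPM to at most 61.3 CPM (log2 fold change -2.38, adjusted p = 1.6e-07) and Cd40lg, the CD40 ligand, fell by 2.34. Fasl fell by 1.83, and Prdm1, which encodes BLIMP1, fell by 1.58 (adjusted p = 0.037). The WT groups overlapped for Prdm1, at 5.32 to 9.41 CPM in Tn and 0.664 to 6.41 CPM in Treg.

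Genes known to be induced by tissue dissociation or stress were read beside the AP-1 factors. Of 20 such genes, all tested, 16 were lower in WT Treg than in WT Tn and 2 higher (median log2 fold change -1.76), and in Aim2-/- 17 were lower and 1 higher (median -1.82), against 39.2% and 40.2% of all genes called lower. Ppp1r15a, a phosphatase subunit of the stress response, fell from at least 1080.0 CPM in WT Tn to at most 28.4 CPM in WT Treg (log2 fold change -5.63, adjusted p = 7.2e-10). The heat shock gene Hspa1a had a log2 fold change of -6.51 (standard error 0.8). It was at 2.24 to 23.05 CPM in WT Tn and 0.0579 to 0.27 CPM in WT Treg. Replicates 2 and 3 of WT Treg were at or under the floor of 3 counts, so the size of this change is imprecise. Its neighbour Hspa1b had a log2 fold change of -5.50 (standard error 0.62), at 0.347 to 0.936 CPM in WT Treg. That of Klf4, an immediate-early zinc finger gene, was -5.24, and all were called. Hspa8, a constitutive chaperone, rose by 0.43 and Ier3 by 0.87 in WT. The 16 genes called lower in WT and the 17 in Aim2-/- moved in the same direction as Fos, Jun and Junb, 2 in each genotype did not pass the test, and the part of these genes in the fall of the AP-1 factors was not tested. Between the genotypes, edgeR called 0 genes of these 4 lists, of 104 tested in Tn, 105 in Treg and 108 in the interaction, with 9, 4 and 4 at an unadjusted p under 0.05. Over all genes, 10.3%, 2.31% and 3.49% were at an unadjusted p under 0.05. Limma-voom called 0 in each, and DESeq2 called 1 in Tn and 0 in the others. The gene was Rhob, a small GTPase gene, at 18.1 to 27.4 CPM in WT Tn and 30.6 to 44.9 CPM in Aim2-/- Tn. Its edgeR log2 fold change was 0.67 (adjusted p = 0.23). DESeq2 called about the same share of all genes tested in Tn, from its count given below, so the call does not set Rhob apart.

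**Figure D5:**
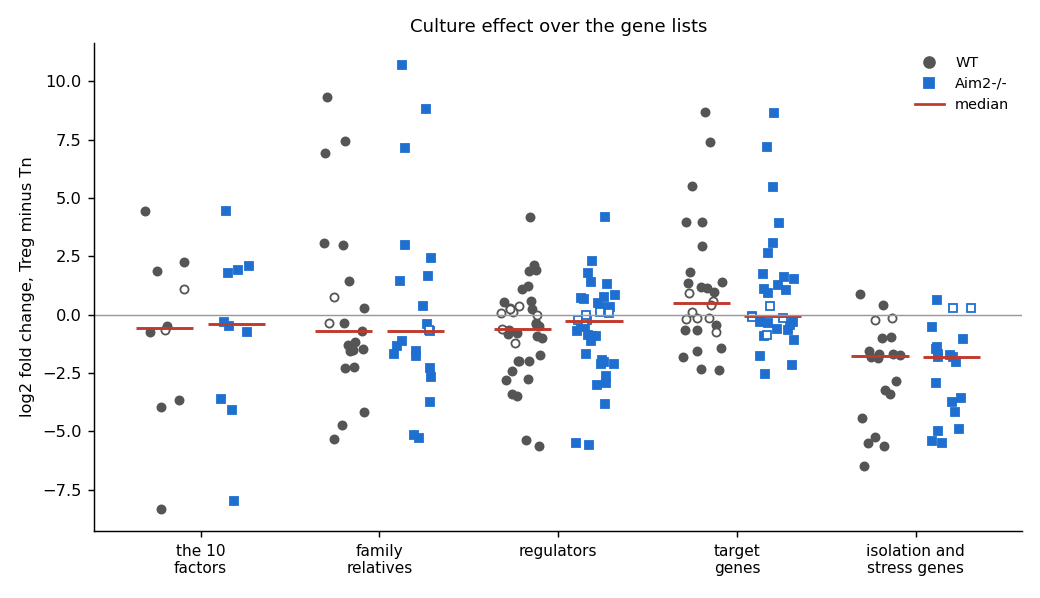
Log2 fold change of Treg against Tn for the 10 factors and for the tested genes of the 4 other lists, in WT (circles) and Aim2-/- (squares); filled symbols passed the test and red lines are medians. The isolation and stress genes lie mostly below 0, with medians of -1.76 and -1.82, and the target genes are spread to both sides.

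For each factor, the genes with the most similar profile were taken as those with the smallest mean absolute difference of log2 CPM over the 16 libraries, each profile centred on its own mean, among 14668 genes. As the libraries share the difference between Tn and Treg, such profiles are alike mainly by the size of that difference. Irf4 lay nearest to Dusp4 (mean difference 0.218) and Smim3 (0.236), and Nr4a3 nearest to Cdkn1a (0.316) and Gprc5a (0.390). Egr2 was nearest to the tubulin genes Tubb4b (0.100) and Tubb5 (0.116), Egr3 to Zfp41 (0.104) and Naa40 (0.106), and Egr1 to Atg4d (0.110) and Mink1 (0.114). Jun was closest to Hcst (0.184) and AB124611 (0.198), Junb to Hrh2 (0.153) and H2-Q5 (0.159), and Nfatc1 to Itch and Taok3 (both 0.070). Nr4a1 had C920009B18Rik (0.179) and Ubl3 (0.184) as its neighbours. For Fos, the nearest genes, Oas2 (0.690) and Dtx1 (0.721), lay further away than the neighbours of any other factor.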

How the data were processed

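The authors made stranded mRNA libraries from the 16 samples, sequenced them in 51-nt single-end runs, aligned the reads with STAR (GRCm38) and ran RSEM for quantification; the versions of both are not given in the sources used here. They deposited the expected count of each gene in each library, neither normalized nor filtered. Libraries were grouped by their titles.

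Expected counts were rounded. A gene was tested where 4 or more libraries of a comparison had 10 or more counts. The main test was edgeR 4.0.16 (glmQLFit with the robust option, glmQLFTest, two-sided, TMM) on the libraries compared, without a replicate block, with Benjamini-Hochberg adjustment over all genes tested and a threshold of 0.05. The interaction used all 16 libraries. The study's own test, limma-voom (limma 3.58.1), and DESeq2 1.42.0 were alternatives, with RLE size factors, other filters, 1 fit of all libraries, the block, left-out libraries and fits within replicates 1 and 2 or 3 and 4. Of these, only the main edgeR test, limma-voom and DESeq2 were tried on simulated data. The simulations covered Aim2-/- against WT in Tn and Treg against Tn in WT, and the other settings were not simulated. CPM use TMM factors over 16 libraries. Coordinates and exon lengths are from GENCODE M21 on GRCm38 and promoters from RefSeq.

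The 10 factors and all lists were chosen with earlier results of these data known. Of the other lists, up to 4 called genes with the largest change in each direction in WT are named, with any called between genotypes, and exceptions are stated where they occur; 1 gene that the rule names is not reported here. Cell type markers were summed without a test.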

Additional observations from a re-analysis of the deposited data

Results flagged for a closer look

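Egr3 in Aim2-/- Treg was marked for a closer look because 1 library lay apart from the other 3. Replicate 1 held 47.4 CPM (47.38), against 36.3 to 37.7 CPM in the others, and its gap to the nearest library was 0.872 of the range of the group, above Dixon's 95% critical value for 4 libraries. Of the 40 combinations of a factor and a group that were checked, this was the only one, and chance marks about 1 in 20. In the genotype comparison of Treg, the log2 fold change of Egr3 was -0.15 with this library and -0.26 without it (adjusted p = 0.7 by edgeR), the lowest of the values with 1 library left out, which went up to -0.08; none was called.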

How the results depend on the processing

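In the comparisons of Treg with Tn, Fos, Jun, Junb, Egr1, Egr2, Egr3 and Irf4 kept their direction and their call in both genotypes under every alternative and with any 1 library left out. In WT, Nr4a3 was called by limma-voom, at a log2 fold change of 2.22 (adjusted p = 0.045). In Aim2-/-, Nr4a1 was not called without the filter on low counts (-0.69, adjusted p = 0.092). Nfatc1 stayed called in Aim2-/- with each library left out, at log2 fold changes of -0.43 to -0.25. The highest adjusted p of these edgeR fits was 0.05 after rounding, so the call was then at the threshold. The remaining changes of a call are given with Nr4a1, Nr4a3 and Nfatc1 above.

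No alternative called a factor between the genotypes, except the fit within replicates 3 and 4 of Tn, which called 1, Irf4, in a subset that separates the WT libraries low in this gene and so gives no test of it. The number of genes called in Tn was 31, and 127 with DESeq2, 47 without a filter, 18 with 10 counts in every library, 50 with all 16 libraries in 1 fit, 15 within replicates 1 and 2, 516 within replicates 3 and 4, and 17 to 28 with 1 library left out. In Treg it was 29, and 52 with DESeq2, 17 with 10 counts in every library, 15 and 4 within the 2 replicate subsets, and 10 to 17 with 1 left out. For the interaction it was 3, and 10 with DESeq2, 0 with 10 counts in every library, and 2 to 5 with 1 left out. The causes were not tested, apart from the fewer genes or libraries in some fits.

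The factors turned direction in the genotype comparisons as follows, in log2 fold change and without a call. In Tn, Nr4a3 was at 0.22 with limma-voom and 0.24 with the replicate block. Within replicates 1 and 2, Nr4a1 was at -0.15, Egr1 at 0.23, Egr3 at 0.36, Fos at 0.00 and Irf4 at -0.30, and within replicates 3 and 4 Nr4a3 was at 1.83 and Jun at -0.17. With 1 library left out, the ranges were -0.28 to 0.40 for Nr4a1, -1.26 to 0.14 for Nr4a3, -0.25 to 0.10 for Egr1, -0.23 to 0.07 for Egr3, -0.22 to 0.02 for Fos, -0.11 to 0.31 for Jun and -0.27 to 0.60 for Irf4. In Treg, Egr3 was at 0.01 within replicates 1 and 2, and Fos at -0.04, Nfatc1 at -0.07 and Irf4 at -0.01 within 3 and 4; left-out ranges were -0.03 to 0.24 for Nr4a3, -0.02 to 0.10 for Nfatc1, -0.05 to 0.10 for Jun and -0.01 to 0.09 for Irf4. For the interaction, Nr4a3 was at -0.11 and Jun at -0.05 with limma-voom, and Jun at -0.02 with the block. Within replicates 1 and 2, the interaction of Nr4a1 was 0.17, Egr1 -0.16, Jun -0.22 and Irf4 0.40, and within 3 and 4 that of Nr4a3 was -1.77 and Egr3 0.09. Left-out ranges of the interaction were -0.46 to 0.20 for Nr4a1, -0.06 to 1.31 for Nr4a3, -0.21 to 0.06 for Egr3, -0.26 to 0.14 for Jun and -0.55 to 0.29 for Irf4.

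Same-numbered libraries did not all deviate together: the mean correlation of their deviations over genes was 0.16 for the genotypes in Tn, 0.30 in Treg, and 0.04 and 0.02 for the cultures in WT and Aim2-/-. In Treg, the pairs of replicates 1, 2 and 4 were at 0.49, 0.30 and 0.42 and that of replicate 3 at -0.02, and in Tn those of replicates 1 and 3 were at 0.22 and 0.35 and the others at 0.06 and 0.03. As not every pair was above 0.1 in any comparison, the numbers were not taken to pair the samples. The replicate block changed no call of a factor, and with it 10352 genes were called for culture in WT, 10859 in Aim2-/-, 29 between the genotypes in Tn, 41 in Treg and 2 in the interaction. Depth limits Fos in Treg, near 1 CPM. The median log2 fold change of all genes moved by less than 0.1 between scalings.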

Other observations

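Some genes of the lists varied widely among the Treg libraries, where the 10 factors did not, and were picked after their values were seen. Nfatc4 was at 14.4, 11.9, 7.82 and 0.852 CPM in replicates 1 to 4 of WT Treg and at 16.1, 10.7, 1.48 and 1.30 CPM in Aim2-/- Treg. Atf3, a stress-induced factor of the ATF family, was at 5.84, 6.89, 4.56 and 24.5 CPM in WT Treg and at 7.73, 12.3, 20.3 and 23.3 CPM in Aim2-/- Treg. The libraries of both genotypes therefore overlapped for both genes.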
